A study of Mus musculus with 3 samples.

Results

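The olfactory nerve layer (ONL) was compared with the glomerular layer (GL) beneath it in 3 coronal sections of the main olfactory bulb of C57BL/6J mice aged 12 weeks. RNA with a poly(A) tail was captured in place on high-density spatial transcriptomics arrays. Each spot reads a small area of tissue and not a separated cell. The authors gave each spot under tissue 1 of 9 region names or marked it unknown, and the counts of all spots named ONL and of all spots named GL were summed within each section. The ONL sums drew on 78074, 81975 and 78328 spots and the GL sums on 158629, 149579 and 175070 spots in sections 1, 2 and 3, which is 721655 of the 2250425 spots in all and 6 of 27 sums of a region and a section. The labels name no treatment and no genotype beyond the strain, and the animal behind a section is not named in them, nor whether 1 animal gave several sections. A p-value here therefore concerns these sections and not animals, and the spread between sections may be technical. In the test of genes, the spread used for nearly all of them was a trend fitted across genes, not the gene's own spread between sections. Both layers of a pair lay on the same section and array, so they were compared within sections.

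Axons of the olfactory sensory neurons reach the bulb through the ONL, wrapped in bundles by olfactory ensheathing glia and covered by the pia. Their cell bodies are in the nose, so the ONL holds their axons and whatever RNA these carry. In the GL the axons end in glomeruli, where they synapse on the dendrites of mitral and tufted cells, the projection neurons of the bulb, and of periglomerular interneurons, many of which release GABA or dopamine.

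The ONL sums held 15526, 70661 and 54916 counts and the GL sums 49049, 151058 and 132228 counts in sections 1, 2 and 3, from 5744, 11300 and 10447 genes in ONL and 9314, 13413 and 13041 genes in GL. Section 1 was the shallowest by far, and 1 count in its ONL corresponds to more CPM (counts scaled to a total of 1000000 per sum) than in any other of the 6 sums. A spot with at least 1 count held 2.36, 3.47 and 2.99 counts in ONL and 2.62, 4.21 and 3.58 counts in GL. ONL spots therefore held fewer counts than GL spots in 3 of 3 sections, with a mean log2 ratio of -0.23 ± 0.07 (SD, n = 3) and a two-sided exact permutation p of 0.25, the smallest that 3 pairs allow. In such sums, fewer cells of a type and less RNA per cell cannot be told apart. Genes near-identical to mitochondrial transcripts also set section 1 apart, with 29241, 86993 and 82144 CPM in ONL, against 22590, 89800 and 89444 CPM in GL, and 0 of the 10 passed the test between layers.

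Among the genes that differed, those known from ensheathing glia, sensory neurons, the meninges and fatty acid desaturation were higher in ONL, and those known from projection neurons and interneurons of the bulb were lower. Of 1344 genes with enough counts to test, 52 (3.87%) differed between ONL and GL at an adjusted p below 0.05, with 36 (2.68%) higher in ONL and 16 (1.19%) lower in ONL (edgeR quasi-likelihood test with section in the model, Benjamini-Hochberg adjustment over all 1344 genes). A fold of 2 or more separated the layers for 16 of the higher and 7 of the lower genes. The direction was the same in 3 of 3 sections for 44 of the 52 genes and in 2 of 3 for the other 8 (Ahnak, Timp3, Mcf2l, Nudt4, Zbtb20, Ncam1, Sash1 and Slc1a2). Over all 1344 tested genes it was the same in 3 of 3 sections for 438, and the 52 were chosen on the same values. The median log2 fold change of ONL over GL across all tested genes was -0.03, with 617 genes above 0. Counts of genes that passed within a list, given below, are to be read beside these shares. The share of all tested genes without overlap between the layers is not given, so a lack of overlap in a gene that passed is description only. Of the 52 genes, 40 passed without section 1, 8 without section 2 and 13 without section 3, and 0 genes passed when the section was not in the model, where 35 had an unadjusted p below 0.05. Abca8a, Ahnak, Apod, Fabp7, Igfbp5, Ptgds and Scd1 passed with each section left out wherever they had enough counts to be tested. Omp and Nrsn1 also passed without section 2, and Igf2, Kctd12, Plekhb1, Kif5b and Hbb-bs were among those that passed without section 3.

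Counts are per gene, and GENCODE M21 places the genes on mm10 as protein-coding loci. Among those higher in ONL, Ptgds lies at chr2:25466709-25470046, Scd1 at chr19:44394455-44407879, Igfbp5 at chr1:72857932-72874884, Fabp7 at chr10:57784881-57788450, Apod at chr16:31296192-31314808 and Omp at chr7:98143359-98145502. Among those lower in ONL, Eomes lies at chr9:118478212-118486132, Calb2 at chr8:110137502-110168210 and Nrsn1 at chr13:25252040-25270502.

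**Figure D1:**
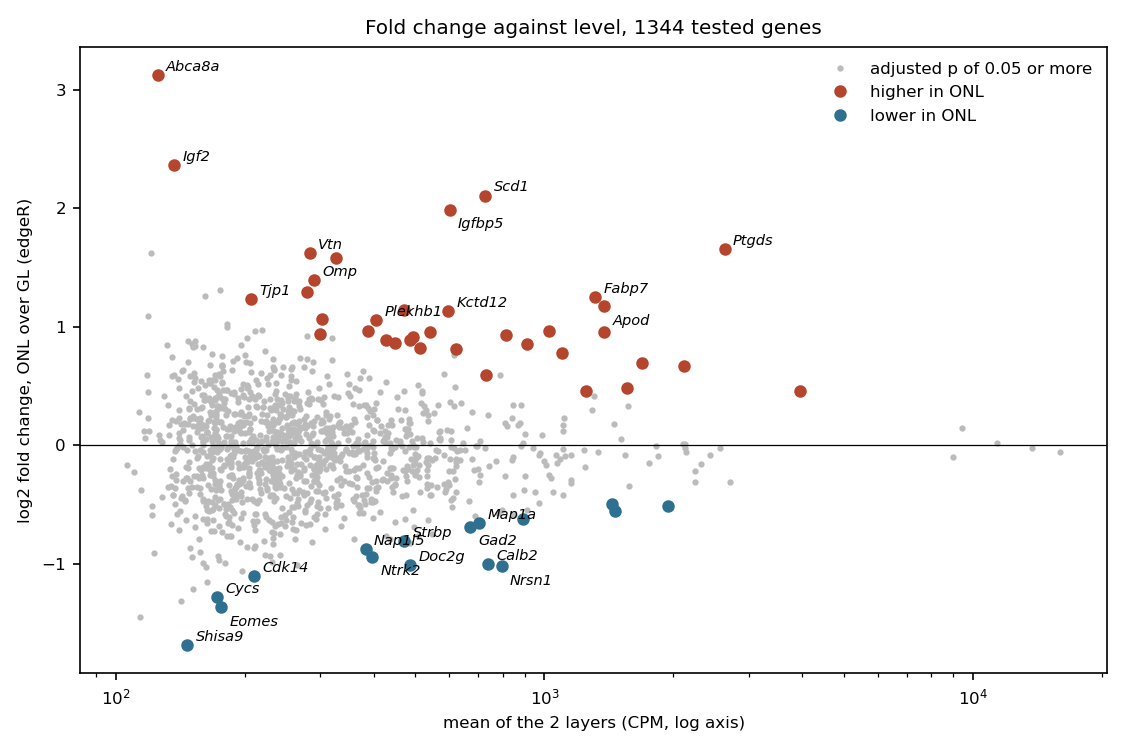
Each point is 1 of 1344 tested genes, with the mean CPM of both layers on the x axis (log scale) and the log2 fold change of ONL over GL on the y axis. The 36 genes higher in ONL are red and the 16 lower in ONL are blue, the grey genes did not pass, and Abca8a has the highest fold change of those that passed.

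Fabp7 and Apod, markers of olfactory ensheathing glia, were higher in ONL. Fabp7, a fatty acid binding protein of radial and ensheathing glia, had 1095, 2392 and 2076 CPM in ONL, against 326, 874 and 1119 CPM in GL in sections 1, 2 and 3. Apod, a secreted lipid carrier, had 2061, 2293 and 1457 CPM in ONL, against 673, 887 and 892 CPM in GL. Both genes were higher in ONL in 3 of 3 sections. The groups did not overlap for Apod, while for Fabp7 the low ONL value of section 1 was below the highest GL value. Their tests gave a log2 fold change of 1.25 ± 0.14 (SE) and an adjusted p of 2.92e-16 for Fabp7, and a log2 fold change of 1.18 ± 0.14 (SE) and an adjusted p of 8.03e-14 for Apod (edgeR quasi-likelihood test). Of the 12 markers in the list, 7 were tested, Fabp7 and Apod rose in ONL and 0 fell, with a median log2 fold change of 0.83. Over all 1344 tested genes, 2.68% rose and 1.19% fell. S100b, a calcium binding protein of many glia, had a mean of 334 against 215 CPM (ONL against GL) and did not pass (log2 fold change 0.66, adjusted p = 0.324 in edgeR). Npy, a peptide also made by neurons (log2 fold change 0.66), the secreted Wnt antagonist Frzb (0.83) and the endothelin receptor gene Ednrb (-0.42) did not pass either. The glial transcription factor Sox10 had too few counts to test (12 in ONL against 9 in GL), as had the neurotrophin receptor gene Ngfr (0 in ONL against 4 in GL) and Prss56 (0 in ONL against 7 in GL), and Sostdc1 had 0 counts in both layers. These raw counts are not scaled for the larger GL sums. The summed list stood at 5024, 7897 and 6919.7 CPM in ONL, against 2528, 3621 and 3933 CPM in GL, so its levels in the layers did not overlap. Of the myelinating oligodendrocyte markers, Mbp, a myelin protein, had a mean of 883 against 1061 CPM (log2 fold change -0.48, adjusted p = 0.188 in edgeR) and Mobp 339 against 279 CPM, and neither passed.

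Omp and S100a5, transcripts known from olfactory sensory neurons, were also higher in the layer of their axons. Omp, a cytoplasmic protein that marks mature sensory neurons, had 258, 410.4 and 601 CPM in ONL, against 81.6, 199 and 189 CPM in GL, and all 3 ONL values lay above all 3 GL values. Its log2 fold change was 1.40 ± 0.30 (SE), with an adjusted p of 2.83e-04 (edgeR). S100a5, a calcium binding protein of the same neurons, had 773, 495 and 692 CPM in ONL, against 245, 291 and 424 CPM in GL, again with no overlap. Its log2 fold change was 0.89 ± 0.25 (SE), with an adjusted p of 0.0173 (edgeR), and that call was lost without each section in turn and with border spots left out, while of the sections left out only section 3 ended the call for Omp (log2 fold change 1.19, adjusted p = 0.297 in edgeR), as did testing with no filter on low counts (adjusted p = 0.106). Of the 20 markers in the list, 4 were tested, 2 rose and 0 fell, with a median log2 fold change of 0.72, against 2.68% higher and 1.19% lower of all 1344 tested genes. Gng13 and Gnal, subunits of the G proteins that couple odorant receptors to their cyclase, had means of 339.6 against 220.4 CPM and 189.9 against 126 CPM (ONL against GL) and adjusted p-values of 0.625 and 0.672 (edgeR). The cyclase Adcy3 and the channel subunits Cnga2, Cnga4 and Cngb1 had at most 12 counts in either layer and were not tested. The summed list held 1932, 2109 and 2130.5 CPM in ONL, against 836, 1225 and 1324 CPM in GL.

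Promoters of the genes from these lists are shown because the lists stand for the cell types of the nerve, and because S100a5, Fabp7 and Apod rose together in ONL. The RefSeq table of GRCm38.p6 held these 3 genes, as 250 bases before to 50 bases after the annotated start, and Omp was not among its entries. The S100a5 window is chr3:90608272-90608571 on the plus strand, that of Fabp7 is chr10:57784673-57784972 on the plus strand, and that of Apod is chr16:31314759-31315058 on the minus strand. Each is written 5′ to 3′ along its gene, with motif matches in capitals.
S100a5: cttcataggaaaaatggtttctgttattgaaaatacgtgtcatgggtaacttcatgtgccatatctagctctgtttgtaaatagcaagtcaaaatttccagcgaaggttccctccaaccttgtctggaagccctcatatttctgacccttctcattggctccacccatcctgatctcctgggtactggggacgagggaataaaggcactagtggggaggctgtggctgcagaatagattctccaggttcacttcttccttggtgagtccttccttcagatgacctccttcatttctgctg
Fabp7: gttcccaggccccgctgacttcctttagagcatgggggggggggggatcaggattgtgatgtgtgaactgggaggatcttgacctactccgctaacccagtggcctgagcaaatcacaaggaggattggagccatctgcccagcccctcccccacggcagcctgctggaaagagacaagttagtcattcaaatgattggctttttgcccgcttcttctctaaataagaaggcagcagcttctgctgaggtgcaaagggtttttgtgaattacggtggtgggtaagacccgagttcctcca
Apod: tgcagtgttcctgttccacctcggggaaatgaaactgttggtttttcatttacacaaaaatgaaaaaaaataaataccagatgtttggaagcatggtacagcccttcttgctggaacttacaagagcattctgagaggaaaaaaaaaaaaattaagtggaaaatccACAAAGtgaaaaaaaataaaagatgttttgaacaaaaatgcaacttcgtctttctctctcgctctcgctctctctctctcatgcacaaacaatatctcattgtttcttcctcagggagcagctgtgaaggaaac
Searched on both strands were CCCNNGGG, the core bound by EBF (Olf-1) factors of sensory neurons, ACAAAG, the core bound by SOX factors, and the TATA box TATAAA. None of the 3 motifs contains another. The search found 1 match, ACAAAG in the Apod window, which starts 84 bases before the annotated start. Among all 32851 promoters of the table, 13.7% held CCCNNGGG, 18.7% held ACAAAG and 13.6% held TATAAA. The windows are 46.3% (S100a5), 54% (Fabp7) and 37.3% (Apod) G and C, against a median of 52.7% over the table.

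Ptgds, Igf2, Vtn and Sparc, known from the meninges and vessels, were higher in ONL as well. Ptgds, the prostaglandin D synthase made in quantity by the leptomeninges, had 4509, 3580.5 and 4188 CPM in ONL, against 795, 1403 and 1331 CPM in GL. Its log2 fold change was 1.66 ± 0.11 (SE), with an adjusted p of 2.65e-46 (edgeR). Igf2, a growth factor that meninges secrete in the adult brain, had 193, 255 and 255 CPM in ONL, against 0, 33.1 and 83.2 CPM in GL, with a log2 fold change of 2.37 ± 0.57 (SE) and an adjusted p of 0.00196 (edgeR) from 35 counts in ONL and 16 in GL. Without section 2 its log2 fold change was 1.89 and missed the threshold (adjusted p = 0.0576, edgeR), and without section 3 it was 3.21. No value of either gene overlapped between the layers. Of the 14 meningeal markers, only Ptgds and Igf2 were tested. Among the untested, the collagen-binding proteoglycan Dcn had 45 counts in ONL against 10 in GL, and the collagen gene Col1a1 had 15 in ONL against 14 in GL. These are raw counts, and the GL sums held more counts in all than the ONL sums in each section. The summed list held 5153, 4840 and 5408 CPM in ONL, against 877, 1695 and 1732 CPM in GL, most of it Ptgds.

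Among vessel markers, Vtn (vitronectin), which pericytes make in brain, had 451, 368 and 437 CPM in ONL, against 204, 126 and 113 CPM in GL. Its log2 fold change was 1.62 ± 0.32 (SE), with an adjusted p of 3.32e-05 (edgeR). Sparc, a secreted matrix protein of endothelium and glia, had 902, 623 and 601 CPM in ONL, against 469, 252 and 393 CPM in GL, with a log2 fold change of 0.96 ± 0.25 (SE) and an adjusted p of 0.00484 (edgeR). Bsg, a membrane protein of brain endothelium, had 1095, 495 and 637 CPM in ONL, against 652, 430.3 and 522 CPM in GL and did not pass (adjusted p = 0.551, edgeR). Thus 2 of the 3 tested genes of the 15 in this list rose and 0 fell, with a median log2 fold change of 0.96. Both calls were lost without section 2 and without section 3. The defining endothelial gene Cldn5 had 18 raw counts in ONL against 24 in the larger GL sums, too few to test, so no direction is read from them. Hbb-bs, a beta-globin of red cells, had 1546, 976 and 1056 CPM in ONL, against 673, 503 and 711 CPM in GL, with a log2 fold change of 0.85 ± 0.18 (SE) and an adjusted p of 2.36e-04 (edgeR). It was the 1 gene of 4 tested from the 5 of the blood list that passed, and its call was lost without section 2. The summed blood list held 3736, 2094 and 2294 CPM in ONL, against 1692, 1258 and 1913 CPM in GL, with the lowest ONL value above the highest GL value. The globin genes have near-identical copies (Hba-a1 and Hba-a2, Hbb-bs and Hbb-bt), so the split of counts between copies is uncertain. The part of surface tissue, vessels and blood in the other genes that were higher in ONL was not tested. With the blood and meningeal genes taken out of the table, 48 genes passed, all of them among the 52, and Ptgds, Igf2 and Hbb-bs were themselves taken out. This left the counts of all other genes as they were, so it cannot show what part surface tissue, vessels or blood had in them.

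Beside Igf2, its binding protein gene Igfbp5 rose. Igfbp5, whose product binds insulin-like growth factors outside the cell, had 322, 1203 and 1293 CPM in ONL, against 204, 291 and 295 CPM in GL, and its log2 fold change was 1.99 ± 0.22 (SE), with an adjusted p of 2.34e-16 (edgeR). All ONL values exceeded all GL values, but the section 1 pair was much closer than the other pairs. Igfbp2 had a mean of 209 against 202 CPM and the receptor gene Igf1r 151 against 169 CPM, and neither passed. Of the 10 genes in the list, 4 were tested and 2 (Igf2 and Igfbp5) rose, with 0 lower and a median log2 fold change of 1.06.

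Both stearoyl-CoA desaturase genes measured were higher in ONL. Scd1, a stearoyl-CoA desaturase that makes monounsaturated fatty acids, had 193, 1698 and 1584 CPM in ONL, against 163, 364 and 363 CPM in GL. The gap was wide in sections 2 and 3 and small in section 1, whose ONL value rests on 3 counts, and the groups overlapped for that reason. Its log2 fold change was 2.11 ± 0.20 (SE), with an adjusted p of 1.68e-23 (edgeR). Scd2, its relative and the main desaturase of brain, had 2963, 2462 and 2386 CPM in ONL, against 1774, 1595 and 1512 CPM in GL, with no overlap and a log2 fold change of 0.67 ± 0.12 (SE) and an adjusted p of 2.07e-06 (edgeR). Fasn, the fatty acid synthase, had a mean of 374 against 266 CPM and missed the threshold (adjusted p = 0.0577, edgeR). Elovl5, an elongase (log2 fold change 1.31), the desaturase Fads1 (0.73) and the sterol enzyme Hmgcs1 (0.40) were not past the threshold either. Of the 19 genes in the list, 8 were tested, 2 rose and 0 fell, with 7 of 8 above 0 and a median log2 fold change of 0.70, against -0.03 over all tested genes.

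**Figure D2:**
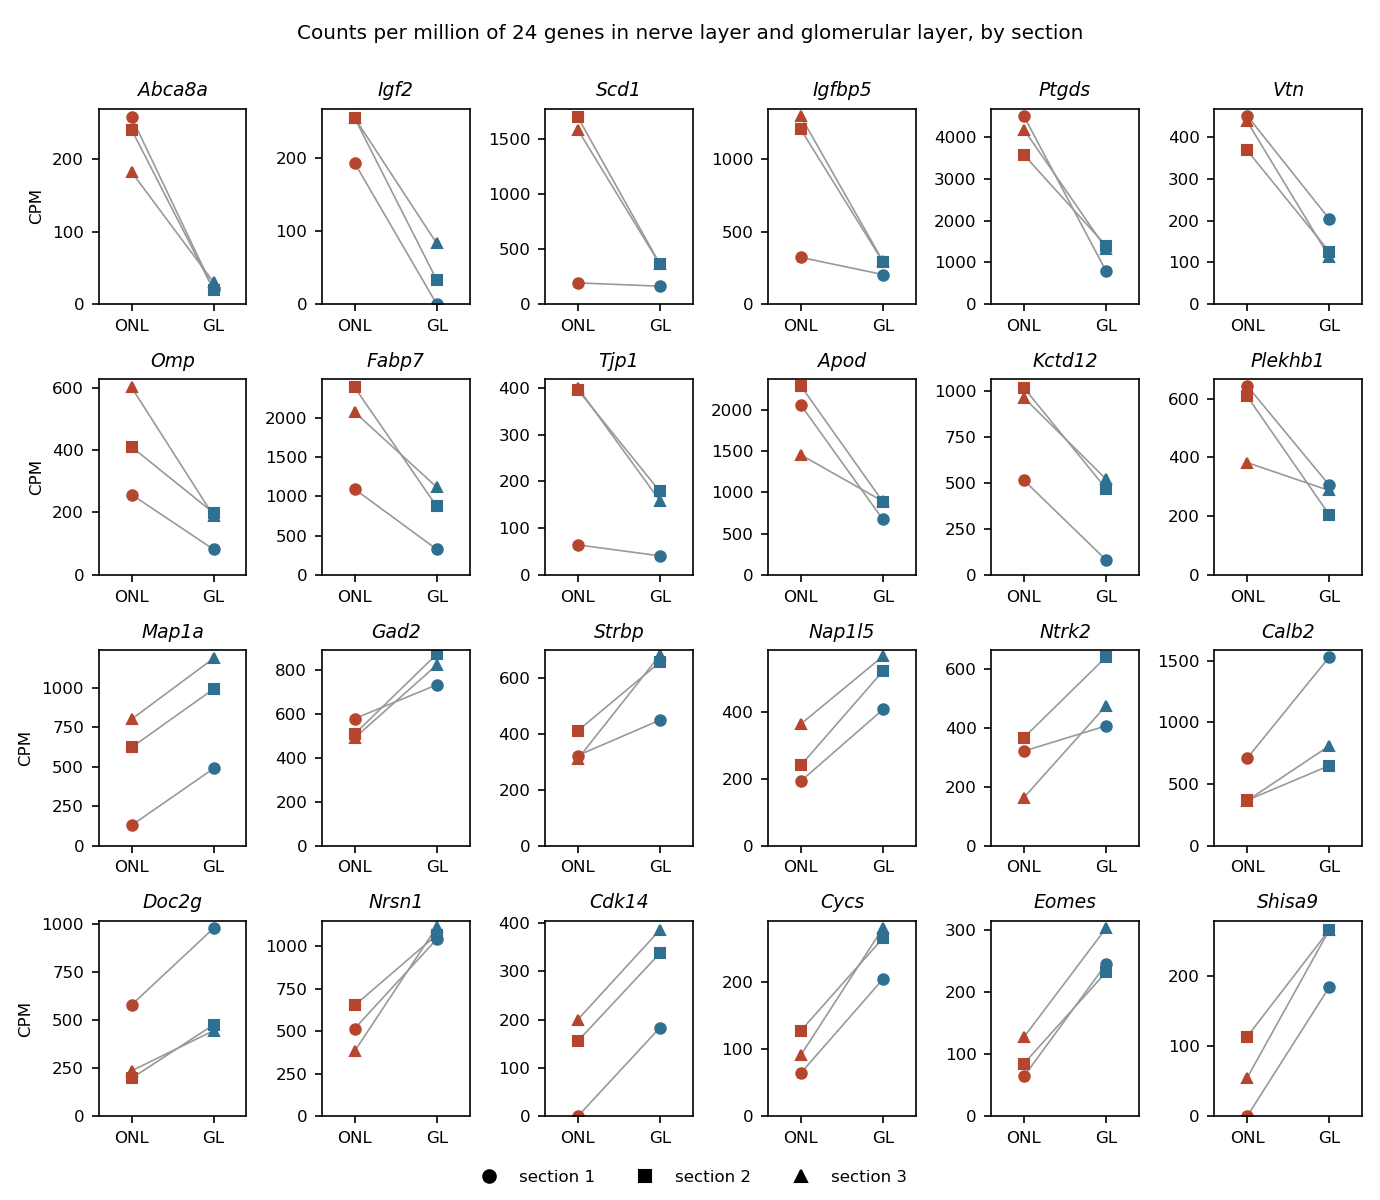
Each panel is 1 of 24 genes with the largest fold changes in the same direction in 3 of 3 sections, with CPM on the y axis, ONL at the left and GL at the right, and a line joining the layers of a section (circle, square and triangle for sections 1, 2 and 3). The upper 12 genes were higher in ONL and the lower 12 were lower, and in Scd1, Igfbp5 and Tjp1 section 1 lies far below the other sections.

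Abca8a, an ATP-binding cassette transporter, had the largest log2 fold change of all genes that passed. It had 258, 241 and 182 CPM in ONL, against 20.4, 19.9 and 30.3 CPM in GL, with no overlap, a log2 fold change of 3.12 ± 0.73 (SE) and an adjusted p of 0.00132 (edgeR), and 31 counts in ONL against 8 in GL in all. Kctd12, an auxiliary subunit of GABA-B receptors, had 515, 1019 and 965 CPM in ONL, against 81.6, 470.0 and 522 CPM in GL, with the section 1 ONL value just below the highest GL value. Its log2 fold change was 1.13 ± 0.21 (SE), with an adjusted p of 1.36e-05 (edgeR), and it was the 1 gene of 15 tested among 28 receptor and scaffold genes to pass. Tjp1, the tight junction scaffold ZO-1, had 64.4, 396 and 401 CPM in ONL, against 40.8, 179 and 159 CPM in GL, so the groups overlapped although each section showed the same direction. Plekhb1, a pleckstrin homology protein, had 644, 609 and 382 CPM in ONL, against 306, 205 and 287 CPM in GL. Tjp1 had a log2 fold change of 1.24 ± 0.32 (SE) and an adjusted p of 0.00576, and Plekhb1 a log2 fold change of 1.06 ± 0.27 (SE) and an adjusted p of 0.00571 (edgeR). Ahnak, a giant scaffold protein, had 0, 736 and 692 CPM in ONL, against 81.6, 218 and 234 CPM in GL, so that section 1 went against sections 2 and 3 (log2 fold change 1.59, adjusted p = 2.28e-06 in edgeR).

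Further genes that rose in ONL had smaller fold changes or 1 section against the others. Ptn, the growth factor pleiotrophin, had 773, 2901 and 2513 CPM in ONL, against 530.1, 1715 and 1679 CPM in GL (log2 fold change of 0.70 ± 0.12 (SE) and an adjusted p of 2.07e-06, edgeR). Both this gene and Kif5b were higher in each section, with overlap through section 1. Kif5b, the heavy chain of kinesin-1 and the only gene of 17 tested among 25 axon cytoskeleton and transport genes to rise, had 322, 2066 and 1657 CPM in ONL, against 122, 1039 and 930.2 CPM in GL (log2 fold change of 0.97 ± 0.15 (SE) and an adjusted p of 5.36e-08, edgeR). The adhesion molecule Ncam1 (log2 fold change 0.82), the imprinted membrane protein gene Nnat (0.91), the transcriptional repressor Zbtb20 (0.93), Apc of the Wnt pathway (0.78) and the actin-binding kinase substrate Marcks (0.59) also passed. Prdx1, a peroxiredoxin, had 773, 467 and 492 CPM in ONL, against 265, 298 and 272 CPM in GL, with a log2 fold change of 0.89 and an adjusted p of 0.0305 (edgeR). It was the 1 gene to pass of 5 tested in the antioxidant list of 21, whose median log2 fold change was -0.06. The Prdx1 call was lost without each section in turn. Timp3, an inhibitor of matrix proteases (1.29), the exchange factor Mcf2l (1.14), the phosphohydrolase Nudt4 (1.07), the RNA-binding protein gene Ybx1 (0.96), the co-chaperone St13 (0.94, and 1.53 without section 3, where it missed the threshold), Ahcyl2 (0.86), the scaffold Sash1 (0.81) and the membrane protein gene Itm2b (0.48) passed as well.

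Astrocyte genes moved in both directions. Apoe, the lipid carrier of astrocytes, had 6119, 3892 and 3587 CPM in ONL, against 4873, 2741 and 2534 CPM in GL (log2 fold change of 0.46 ± 0.09 (SE) and an adjusted p of 7.75e-05, edgeR). Slc1a2, the glutamate transporter GLT-1, had 579.7, 1698 and 1348 CPM in ONL, against 428, 2403 and 2155 CPM in GL, and was lower in ONL in sections 2 and 3 but not in section 1 (log2 fold change of -0.50 ± 0.13 (SE) and an adjusted p of 0.00914, edgeR). The values of both genes overlapped between the layers, mainly through section 1. Slc6a11, a GABA transporter of astrocytes that was not in the list, had a log2 fold change of -0.62 (adjusted p = 0.027, edgeR). Of 13 tested astrocyte markers among 14, Apoe rose and Slc1a2 fell, with a median log2 fold change of 0.01 over those tested. Sparcl1 and Glul had log2 fold changes of -0.31 and 0.01 and did not pass. The intermediate filament gene Gfap had 13 raw counts in ONL against 52 in the larger GL sums, too few to test. The summed list held 15651, 16162 and 15096 CPM in ONL, against 14761, 15789 and 15398 CPM in GL.

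Of the genes of the projection neurons, Eomes and Doc2g were lower in ONL. Eomes, the T-box factor of mitral and tufted cells, had 64.4, 84.9 and 127 CPM in ONL, against 245, 232 and 303 CPM in GL. Doc2g, a gene of the Doc2 family enriched in these cells, had 579.7, 198 and 237 CPM in ONL, against 979, 477 and 446 CPM in GL. No value of Eomes overlapped, whereas for Doc2g the section 1 ONL value exceeded the GL values of sections 2 and 3, with the direction the same in each section. Eomes had a log2 fold change of -1.36 ± 0.40 (SE) and an adjusted p of 0.0248, and Doc2g a log2 fold change of -1.01 ± 0.28 (SE) and an adjusted p of 0.0127 (edgeR). The vesicular glutamate transporter Slc17a7 (log2 fold change -0.79, adjusted p = 0.150), the peptide gene Cck (-0.77, 0.134), the cadherin Cdhr1 (-0.69, 0.170) and the secreted glycoprotein Olfm1 (-0.58, 0.0653) did not pass in edgeR. Uchl1, a ubiquitin hydrolase that many neurons make, ran the other way (0.72, adjusted p = 0.237). Of 9 tested genes among 14, 8 were below 0 and the median log2 fold change was -0.69, while 617 of all 1344 tested genes were above 0. Of the 9, 2 fell and 0 rose, against 1.19% lower and 2.68% higher of all 1344. Both calls were lost without each section in turn, and the summed list held 5217, 2109 and 2495 CPM in ONL, against 6218, 3588 and 3592 CPM in GL, with section 1 above the others in each layer. With border spots left out, both calls were also lost, and Uchl1 passed as higher in ONL. It was the only call among 8 tested genes of the list, whose median log2 fold change was -0.54. In that setting 30 of all 1076 tested genes were higher in ONL.

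Of the interneuron genes, Calb2 and Gad2 were lower in ONL. Calb2, the calcium binding protein calretinin of a large periglomerular class, had 708, 368 and 364 CPM in ONL, against 1529, 649 and 809 CPM in GL. Gad2, one of the enzymes that make GABA, had 579.7, 509 and 492 CPM in ONL, against 734, 874 and 824 CPM in GL, with all ONL values below all GL values. Calb2 overlapped, through section 1, which was high in both layers. The tests gave a log2 fold change of -1.001 ± 0.22 (SE) and an adjusted p of 3.45e-04 for Calb2, and a log2 fold change of -0.69 ± 0.21 (SE) and an adjusted p of 0.0323 for Gad2 (edgeR). Both passed without section 1, and neither passed without section 2 or without section 3. Gad1, the other GABA enzyme, averaged 1585 ± 583 CPM in ONL and 1430.4 ± 281 CPM in GL (SD, n = 3 sections), with a log2 fold change of 0.06. Th, the dopamine synthesis enzyme that marks a periglomerular class, averaged 267 ± 215 CPM in ONL and 312 ± 225 CPM in GL (SD, n = 3). It did not pass the test within sections (log2 fold change -0.30, adjusted p = 0.826 in edgeR). Transcripts of Th and Gad1, which neurons of the bulb make, were thus counted in ONL too, and Th did not pass as a marker of GL. Calb1 (calbindin), at 0 counts in ONL against 15 in GL, and Ddc and Slc6a3, at 0 against 5 each, were not tested. A count of 0 in ONL allows at most 3 counts in its total, for counting error only. Of 7 tested genes among 18, 2 fell and 0 rose, with a median log2 fold change of -0.32, against 1.19% lower and 2.68% higher of all 1344 tested genes. Granule cell markers, such as Pcp4 (mean of 706 against 529 CPM) and Meis2 (489 against 505 CPM), were also counted in both layers, and 0 of 6 tested among 10 passed.

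The synaptic genes Snap25 and Shisa9, and Map1b and Map1a of the axon cytoskeleton and transport list, were lower in ONL. Snap25, a SNARE protein of vesicle release, had 2061, 1245 and 1457 CPM in ONL, against 3058, 1768 and 2072 CPM in GL, lower in each section but with overlap through section 1, and a log2 fold change of -0.51 ± 0.13 (SE) and an adjusted p of 0.00282 (edgeR). Over all 1344 tested genes, 3.87% passed and 617 were above 0. Snap25 was the only one of 21 tested genes of the 26 in the synaptic vesicle list to pass, while 18 of the 21 were below 0 and the median log2 fold change was -0.39. Vamp2 (-0.29), Cplx1 (-0.54) and Syt1 (-0.39), which act at the same step, did not pass. The microtubule-associated proteins Map1b and Map1a were the 2 genes to fall of 17 tested axon cytoskeleton and transport genes. Of all 1344 tested genes, 1.19% fell. Map1b had 579.7, 1401 and 1566 CPM in ONL, against 775, 2429.5 and 1997 CPM in GL, and Map1a had 129, 623 and 801 CPM in ONL, against 489, 993 and 1187 CPM in GL. Both were lower in ONL in 3 of 3 sections, with overlap across sections, and had a log2 fold change of -0.55 ± 0.13 (SE) and an adjusted p of 0.00217 for Map1b and a log2 fold change of -0.65 ± 0.19 (SE) and an adjusted p of 0.0214 for Map1a (edgeR). Shisa9, an auxiliary subunit of AMPA receptors, had 0, 113 and 54.6 CPM in ONL, against 183, 265 and 265 CPM in GL, without overlap, a log2 fold change of -1.68 ± 0.44 (SE) and an adjusted p of 0.00534 (edgeR) and 11 counts in ONL against 84 in GL. The AMPA receptor subunit Gria1 had a mean of 282 against 573 CPM (log2 fold change -0.77, adjusted p = 0.0653 in edgeR) and Gria2 631 against 582 CPM (0.12), and neither passed.

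The other genes that fell in ONL were of mixed kinds. Nrsn1, the vesicle membrane protein neurensin, had 515, 651 and 382 CPM in ONL, against 1039.8, 1066 and 1112 CPM in GL, with no overlap, and its log2 fold change was -1.02 ± 0.19 (SE), with an adjusted p of 1.50e-05 (edgeR). Cycs, the electron carrier cytochrome c, had 64.4, 127 and 91.0 CPM in ONL, against 204, 265 and 279.8 CPM in GL, with no overlap (log2 fold change of -1.28 ± 0.40 (SE) and an adjusted p of 0.0346, edgeR). No gene of the 52 tested among 87 nuclear respiratory chain genes passed, and their median log2 fold change was -0.19. Ntrk2, the BDNF receptor TrkB, had 322, 368 and 164 CPM in ONL, against 408, 642 and 476 CPM in GL, with no overlap. Cdk14, a cyclin-dependent kinase, had 0, 156 and 200.3 CPM in ONL, against 183, 338 and 386 CPM in GL, which overlapped through section 1. Nap1l5, an imprinted nucleosome assembly gene, had 193, 241 and 364 CPM in ONL, against 408, 523 and 567 CPM in GL, and the RNA-binding protein gene Strbp had 322, 410.4 and 309.6 CPM in ONL, against 449, 655 and 681 CPM in GL, both without overlap. Their log2 fold changes were -0.94 for Ntrk2, -1.10 for Cdk14, -0.87 for Nap1l5 and -0.81 for Strbp, with adjusted p-values of 0.0263, 0.0471, 0.0492 and 0.0363 in the same order (edgeR). Nap1l5 was the last gene inside the threshold, and the first outside it had an adjusted p of 0.0561 (edgeR).

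The remaining lists gave few calls or none. Of 63 tested genes among 80 for cytosolic ribosomal proteins, 0 passed, with a median log2 fold change of 0.04. In the axon guidance and matrix list, 2 of 6 tested among 23 rose (Ncam1 and Sparc) and 0 fell. In the axon cytoskeleton list, 1 of 17 tested rose and 2 fell, with a median of -0.27. The list of immature neurons had 2 of 9 genes tested, of which Nnat rose and Dcx, a microtubule protein of migrating neurons, had a mean of 231 against 180.4 CPM. Microglia were represented among the tested genes by Cst3 alone, a protease inhibitor at 2762 against 2373 CPM on average, and it did not pass. The immediate early gene Egr1 (-0.03) and the noncoding RNA Snhg11 (-0.26), each the only tested member of its list, did not pass. Of the 52 genes, 24 were in none of the 24 lists.

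**Figure D3:**
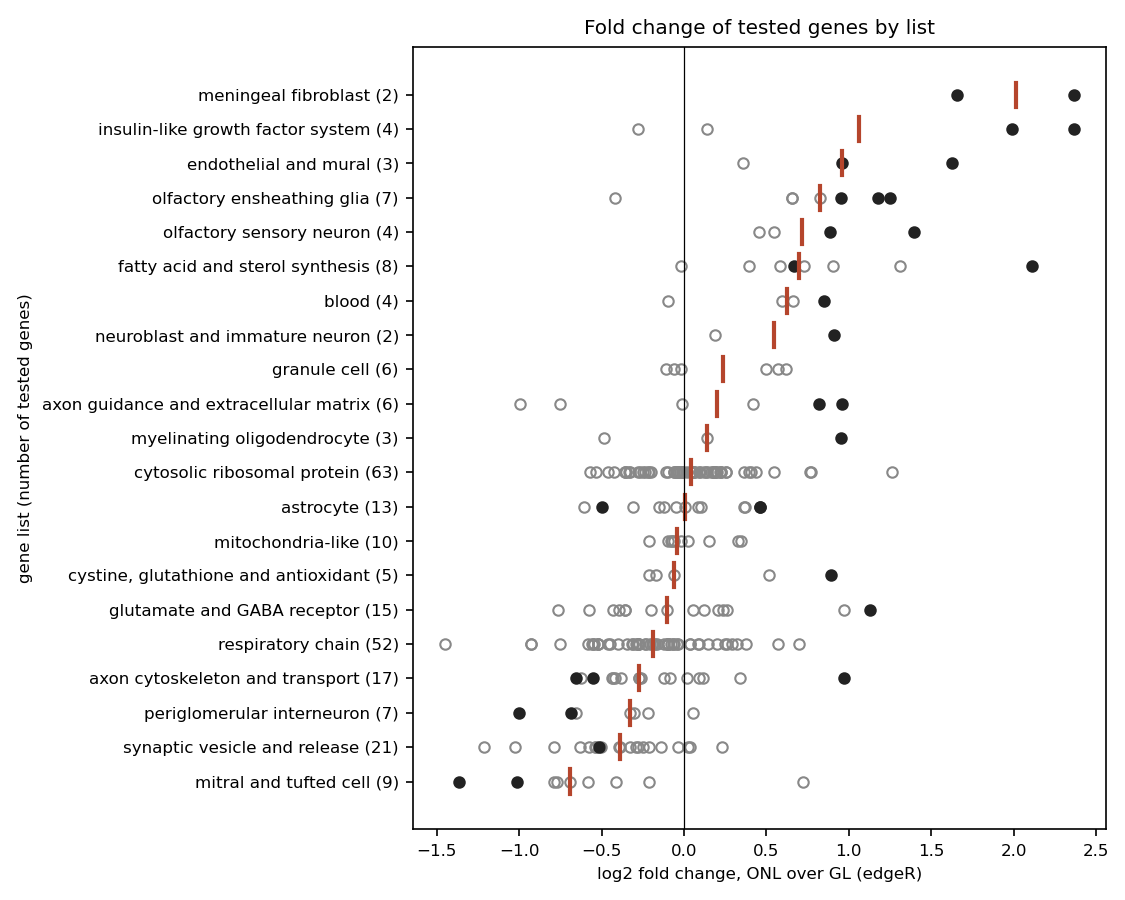
Each row is a gene list with at least 2 tested genes, with the number tested in brackets, and each circle is the log2 fold change of ONL over GL of a tested gene, filled where it passed the test. The red bar is the median of the list, from 2.01 for meningeal markers (2 genes) to -0.69 for mitral and tufted cell markers (9 genes).

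The course of levels across the layers was described by the distance of a spot from the nearest spot of the other layer, in array positions, for genes chosen after their values were seen. ONL was divided into an outer zone, at 20 or more positions from GL, and an inner zone, and GL into a border zone, within 20 positions of ONL, and a deep zone. Ptgds had 6096, 4926 and 6042 CPM in the outer ONL of sections 1, 2 and 3, 3907, 2339.6 and 2169 CPM in the inner ONL, 883, 1748 and 1312 CPM in the border GL and 753, 1237 and 1338 CPM in the deep GL. Its level was highest in the outermost zone in 3 of 3 sections. In GL between 100 and 120 positions from ONL, Ptgds was again at 2077 CPM in section 2 (9 counts) and 4426 CPM in section 3 (15 counts), while section 1 held too little there to read. Fabp7 had 938, 2478 and 2165 CPM in the outer ONL, 1154, 2312 and 1978 CPM in the inner ONL, 505, 1179 and 2082 CPM in the border GL and 241, 726 and 772 CPM in the deep GL, so its level was lowest in the deep GL in each section. Apod showed the same low point, with 482, 677 and 659 CPM in the deep GL, against 1072, 1321 and 1540.3 CPM in the border GL, and in section 3 the border GL exceeded the inner ONL (2309, 2176 and 1141 CPM in the inner ONL of the 3 sections). Omp declined through the 4 zones in each section. In section 1 each zone held 2 counts of it, so the order of its CPM values there follows from the zone totals alone. Omp had 469, 472 and 664 CPM in the outer ONL and 178, 354 and 533, 126, 305 and 257, and 60.2, 147 and 165 CPM in the following zones.

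Kctd12 had a different course, with 234, 826 and 454 CPM in the outer ONL, 622, 1197 and 1522 CPM in the inner ONL, 189, 813 and 1198 CPM in the border GL and 30.1, 304 and 278 CPM in the deep GL. Its highest level in every section was in the inner ONL, next to the glomeruli, although in section 1 the 4 zones held 1, 7, 3 and 1 counts. Scd1 had 469, 1740.3 and 1397 CPM in the outer ONL and 88.8, 1659.5 and 1788 CPM in the inner ONL, against 252, 529 and 713 CPM in the border GL and 120.5, 285 and 237 CPM in the deep GL, which is a step at the border in sections 2 and 3, while the zones of section 1 held between 1 and 4 counts. Igfbp5 had the same step there, with 444, 1007 and 1179 CPM in the inner ONL, against 126, 285 and 371 CPM in the border GL. Nrsn1 had 622, 680.1 and 342 CPM in the inner ONL, against 883, 1098 and 1169 CPM in the border GL, and Calb2 977, 489.7 and 380.4 CPM in the inner ONL, against 1703, 569 and 742 CPM in the border GL. Both were higher on the glomerular side in each section. The outer ONL of section 1 held 4265 counts in all, the fewest of the 12 zones, so that 1 count there is worth the most CPM. With spots within 5 positions of another region left out, 34 genes passed, 30 higher in ONL and 4 lower, and 32 of them were among the 52.

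**Figure D4:**
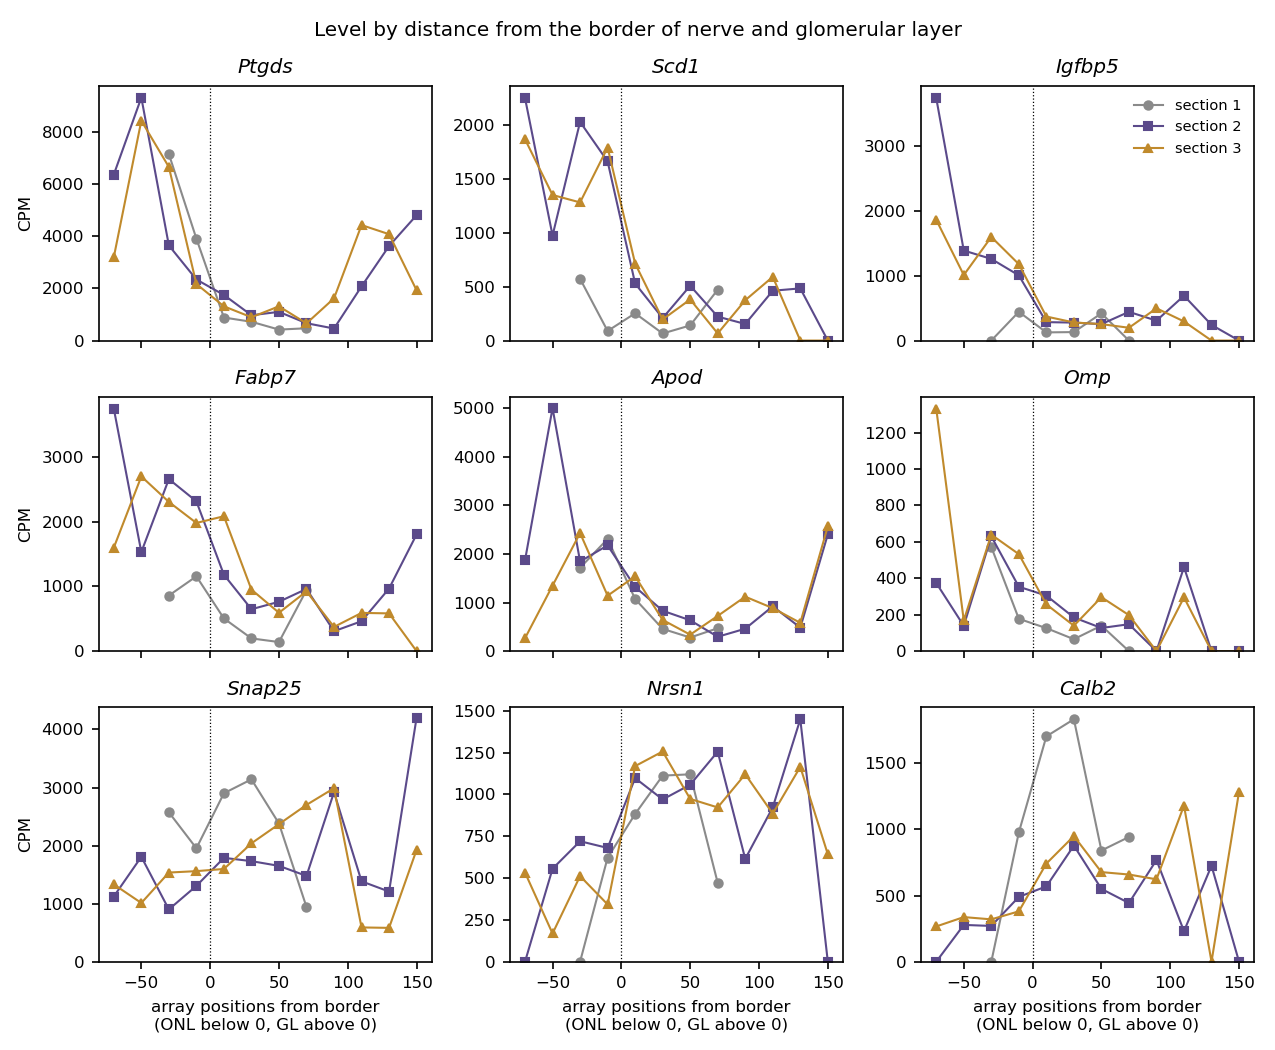
CPM of 9 genes, on the y axis, in bins of 20 array positions from the border of the layers, with ONL below 0 and GL above 0 on the x axis, for each section (bins of at least 1500 counts). Ptgds is highest 20 or more positions out in ONL in each section, Scd1 and Igfbp5 step down at the border in sections 2 and 3, and Calb2 and Nrsn1 are higher on the glomerular side.

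The other 7 regions, which did not enter the comparison, place these levels in the whole bulb, with no test. Of the 36 genes higher in ONL, 32 had their highest mean of the 9 regions in ONL, and for 15 of these 32 GL came second. Their level in GL was above that in the external plexiform layer (EPL), the next layer inward, for 29 of the 36. Omp averaged 423 CPM in ONL, 156 CPM in GL and 52.6 CPM in EPL, and S100a5 653, 319.8 and 135 CPM in the same layers. Ptgds averaged 4092 CPM in ONL, 1176 CPM in GL and 842 CPM in EPL. The exceptions among the 36 were Ahnak, St13, Apc and Itm2b, whose highest mean was in another region. Of the 16 genes lower in ONL, 6 had their highest mean in GL and 3 their lowest in ONL. Eomes averaged 92.3 CPM in ONL, 259.6 CPM in GL, 151 CPM in EPL and 202 CPM in the mitral layer, and Calb2 averaged 480.2 CPM in ONL and 996 CPM in GL, the highest of the 9 regions. Doc2g had its highest mean in EPL (940.0 CPM) and next in the mitral layer (911 CPM). Snap25 was lowest in ONL (1588 CPM) and highest in the mitral layer (4110.1 CPM). The inner regions are shallow, so their means for genes with few counts are imprecise.

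**Figure D5:**
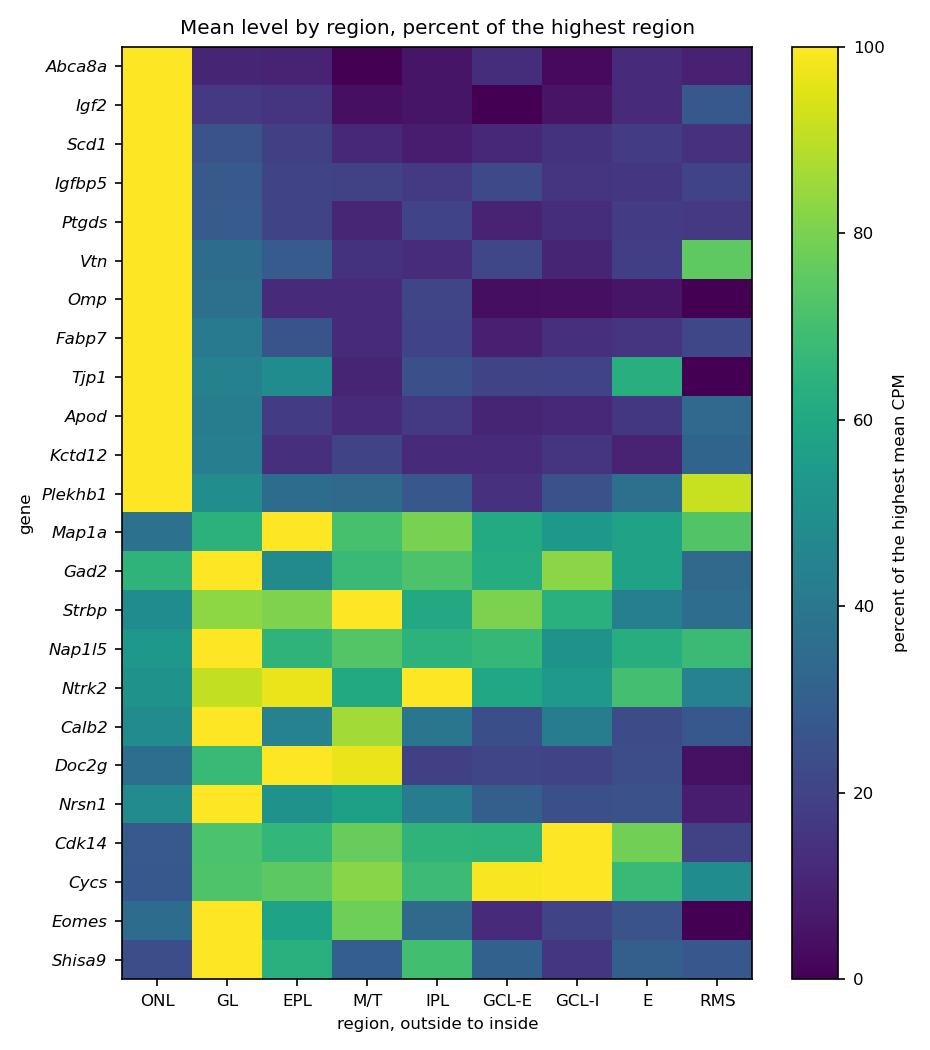
Mean CPM over 3 sections of the 24 genes, as a percent of each gene's highest region, with the 9 regions from outside to inside on the x axis (ONL, GL, EPL, M/T mitral layer, IPL internal plexiform layer, GCL-E and GCL-I granule cell layers, E ependymal zone, RMS rostral migratory system). The 12 upper genes are at 100 percent in ONL, and Gad2, Nap1l5, Calb2, Nrsn1, Eomes and Shisa9 are at 100 percent in GL.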

How the data were processed

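The authors deposited, for each of 3 sections, a table of raw counts by spot and gene and a table of spot positions and region names. The deposited counts are whole numbers. The aligner, the counter, the use of molecular identifiers and the way regions were drawn are not given in the sources used here. Per the submitters' processing notes, the build was mm10. Gene locations came from GENCODE M21, with 99.8% of 19621 symbols found, and promoters from RefSeq.

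Pixel position tied the counts to regions, for 100% of entries. Counts without a gene name (0.0325%, 0.0764% and 0.0801% of the counts of sections 1, 2 and 3) were left out. The sums of ONL and GL held between 15526 and 151058 counts, which limits precision most in section 1. Means and SDs of CPM are over sections, on unscaled totals. The test was edgeR 4.0.16 (R 4.3.3; quasi-likelihood, TMM, section and layer in the model), after filterByExpr with a minimum count of 10, with Benjamini-Hochberg adjustment and a threshold of 0.05. SEs are the log2 fold change over the root of F. With 2 residual degrees of freedom, the spread of nearly all genes came from the fitted trend. Deviations from layer means correlated at 0.69, 0.61 and 0.50 between the layers of sections 1, 2 and 3. Between sections they correlated at 0.56 (ONL of 2, GL of 3), at 0.49 (ONL of 3, GL of 2) and below 0 in the 4 pairs with section 1, so this measure sets section 1 apart but not section 2 from 3. The layers were paired because each pair lies on 1 piece of tissue.

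The compared layers, the 24 gene lists and the genes shown were chosen with earlier results of these data known. Named genes were the 12 with the largest fold changes in each direction that passed, had 1 direction in 3 sections and had at least 30 counts in the higher layer, and list members that passed or had most counts. Other genes that passed, untested list members, and those in the zones were named after their values were seen. Some genes that passed are not reported here. Levels are not per length and were not compared between genes. Alternatives were RLE scaling, unscaled totals, other filters, no section term, all 9 regions in the fit, DESeq2 1.42.0, border spots left out, a join by spot name, thinning to equal totals and each section left out. The fits were tested on simulated data. Tables were built with pandas 2.3.3 and numpy 2.4.6 in Python 3.11.15, and plots with matplotlib 3.10.9.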

Additional observations from a re-analysis of the deposited data

How the results depend on the processing

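No log2 fold change of the 52 genes changed sign in 718 values from 15 alternatives, and 267 of these values missed the threshold. Against 52 genes (36 higher in ONL, 16 lower), 44 passed with RLE scaling, 51 with unscaled totals and 50 with the join by spot name. Without a filter on low counts 19 passed (12 higher, 7 lower) among 16765 genes, and with a minimum count of 30, 35 passed, 10 of them lower, among 206. Without the replicate block (section) 0 passed, 0 higher and 0 lower, with 35 at an unadjusted p below 0.05 (edgeR), and the pairing of layers by section is part of the design. All 9 regions in the fit gave 38, with 6 lower. With border spots left out 34 passed (4 lower), with GL thinned to the total of ONL 28 (2 lower), and with DESeq2 14 (12 higher, 2 lower). Of the 52 genes, 14 passed in DESeq2 and 12 missed its threshold, while it gave the rest no adjusted p. Leaving out 1 section gave between 8 and 71 genes, with 7 to 54 higher and 0 to 17 lower, the most without section 1 and the fewest without section 2. The cause was not tested. The last 2 alternatives were chosen after seeing the data: 53 genes passed without mitochondria-like genes and 48 without blood and meningeal genes. The median log2 fold change of all tested genes was -0.27 without a filter, against -0.03. The log2 ratio of counts per spot was -0.32 with empty spots included, against -0.23, and -0.27 to -0.20 with 1 section left out. The thinned sums hold fewer counts by construction, and 1 section left out leaves 2 pairs.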

Other observations

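Section 1 kept genes with moderate counts below the filter. Without it, 2663 genes were tested and 71 passed, of which 25 had not been tested with all 3 sections, 21 higher in ONL and 4 lower (edgeR). The following were chosen after their values were seen. Dcn (decorin), a proteoglycan of fibroblasts, had 0, 26 and 19 counts in ONL, against 0, 4 and 6 counts in GL (log2 fold change 3.33 ± 0.42 (SE), adjusted p = 1.27e-07, edgeR on sections 2 and 3). Foxd3, a transcription factor of neural crest derivatives, had 1, 8 and 8 counts in ONL, against 1, 2 and 1 counts in GL (log2 fold change 3.48 ± 0.75 (SE), adjusted p = 0.00275, edgeR). Stoml3, a stomatin-like protein of olfactory cilia, had 2, 17 and 12 counts in ONL, against 1, 8 and 9 counts in GL (log2 fold change 1.95 ± 0.44 (SE), adjusted p = 0.00453, edgeR). Slc7a11, the cystine and glutamate exchanger, had 1, 30 and 19 counts in ONL, against 3, 18 and 19 counts in GL (log2 fold change 1.59 ± 0.33 (SE), adjusted p = 0.00182, edgeR). Flt1, a receptor of vessel growth factor on endothelium, had 1, 20 and 22 counts in ONL, against 4, 24 and 15 counts in GL (log2 fold change 1.31 ± 0.35 (SE), adjusted p = 0.0254, edgeR). Among the 4 lower genes, Inpp5f, an inositol phosphatase, had 1, 4 and 0 counts in ONL, against 8, 34 and 21 counts in GL (log2 fold change -2.56 ± 0.58 (SE), adjusted p = 0.00453, edgeR). These values rest on sections 2 and 3 alone, since section 1 held between 0 and 8 counts of each in either layer.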
